A study of Drosophila busckii and Drosophila melanogaster and Drosophila virilis with 5 samples.

Results

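The regions described here are the 381 boundaries of D. virilis whose centre lay in no annotated gene and more than 1000 bp from any transcript start, out of 2127 boundaries called in that species (17.9%) and 6470 in the 3 species of the series. Hi-C, in which ligation of neighbouring DNA ends reports how often loci touch, had been run on mixed-sex whole embryos of stage 15 to 16. The 2 replicates of a species were summed into 1 map, from which boundaries of topologically associating domains (TADs) were called as a single list. Embryos of D. virilis came from 1 stock, and D. melanogaster embryos of the same stages served for the only comparison between species. Whole embryos mix many cell types, and males carry a single X. Because each species has 1 list, no difference could be tested against replicate spread. All comparisons are descriptions, and intervals around medians cover only the spread between boundaries, whose neighbours are not independent. The members were chosen by position in the annotation alone, so their scores and widths are measures that the rule did not read. Distance to a start and, through it, gap length and the orientation of the flanking genes were partly set by the rule.

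A TAD is a segment of a chromosome within which contacts are frequent, and a boundary is the position where contacts between adjacent segments are depleted. In Drosophila many boundaries lie at promoters of housekeeping genes, where proteins such as BEAF-32 and M1BP bind, and others lie in intergenic DNA bound by insulator proteins such as CTCF and Su(Hw). Genes on either side of an intergenic gap can point away from each other (divergent, with both starts facing the gap), towards each other (convergent, with both 3′ ends facing it) or in the same direction. Neither edge of a convergent gap is a gene's 5′ end, so a boundary in a short one can still lie far from starts.

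The boundaries far from starts sat in long gaps. The stretch free of gene features around them had a median of 11.1 kb (quartiles 4.42 and 31.4 kb, range 0.206 to 434 kb). Around the 550 intergenic boundaries within 1000 bp of a start it had a median of 1.11 kb, and over all 11510 gaps between genes the median was 0.855 kb. A long gap is favoured by the rule, since a divergent gap must exceed 2 kb to hold a member. The nearest transcript start lay at a median of 3.43 kb (range 1.00 to 168 kb). The nearest edge of a gene lay at a median of 1.84 kb. Most members were still within reach of a gene: 108 lay within 2 kb of a start, 315 within 10 kb and 374 within 50 kb. The 3 members just over 1000 bp from a start scored -0.189, -0.213 and -0.152, and the 3 intergenic boundaries just under it scored -0.00342, -0.330 and -0.140. So few values cannot show whether scores change at the limit.

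The flanking genes pointed in every combination. Of the 381 members, 97 lay between divergent genes (25.5%), 195 between genes on the same strand (51.2%) and 89 between convergent genes (23.4%). The shares over all gaps were 28.1%, 47.1% and 24.8% in the same order, and over the sequence in which a member could lie they were 23.7%, 50.6% and 25.7%. This eligible sequence is the intergenic DNA over 1000 bp from a start. The near-start intergenic boundaries comprised 294 divergent, 247 same-strand and 9 convergent ones, a split that the rule itself produces. Median gaps were 17.8 kb for divergent, 10.3 kb for same-strand and 9.42 kb for convergent members.

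Protein-coding genes made up 700 of the 762 flanks (91.9%), against 95.8% of the flanks of near-start intergenic boundaries and 94.2% of those of all gaps. Annotated non-coding RNAs made up 31 flanks (4.07%, against 1.45% at near-start boundaries and 2.15% over all gaps). The remaining flanks included 11 pseudogenes, 10 tRNA genes and 7 microRNA genes, and 324 members (85.0%) had a coding gene on both sides, against 90.6% of all gaps.

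The TAD-separation score takes low values at boundaries that few contacts cross, and it did not enter the choice of members. The members had a median score of -0.0283 (95% interval -0.0497 to -0.00325, quartiles -0.146 and 0.112, SD 0.210), against -0.0815 in the intergenic boundaries near a start (-0.0974 to -0.0682, SD 0.146) and -0.0543 over all 2127 (SD 0.177). Boundaries inside genes had medians of -0.0683 within 1000 bp of a start and 0.0136 (-0.00642 to 0.0392) farther from it. The members were thus spread widely on both sides of 0, with 214 below and 167 above it, and their higher scores reached farther than those of the near-start intergenic class.

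**Figure D1:**
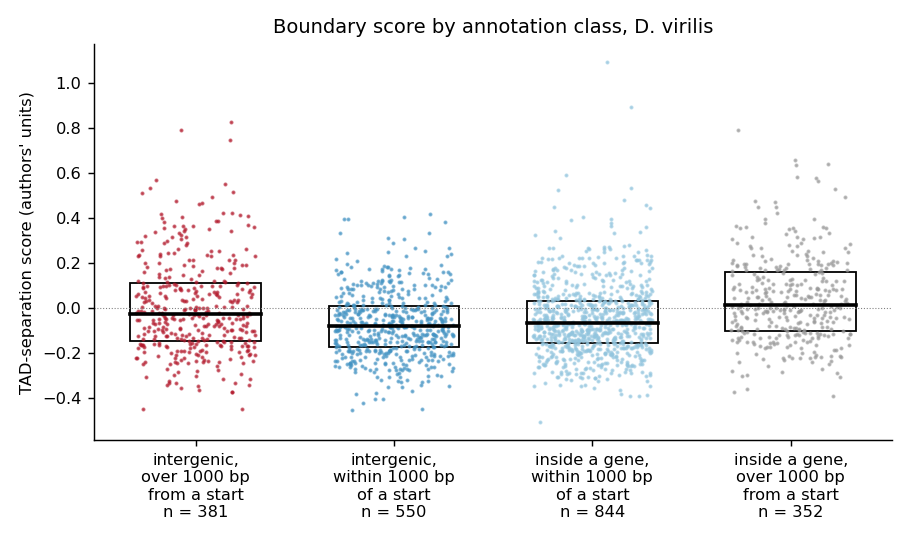
TAD-separation score (y axis, the authors' units) of each D. virilis boundary in 4 annotation classes. Points are boundaries, boxes span the quartiles and thick lines are medians, which were -0.0283 for the 381 intergenic boundaries far from starts and -0.0815 for the 550 near starts.

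The spread was clearest at the weak end of the list. Of the members, 67 (17.6%) scored in the highest 10% of the D. virilis list, against 10.0% of all boundaries, and 131 (34.4%) scored in the highest 25%, against 25.0%. In the highest 10% were 3.82% of intergenic boundaries near a start and 17.9% of boundaries inside genes far from starts. At the strong end the shares stayed near those of the whole list, with 37 members (9.71%) in the lowest 10%, against 10.0% of all boundaries, and 92 (24.1%) in the lowest 25%, against 25.0%. Near-start intergenic boundaries had 13.1% in the lowest 10%.

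Score hardly differed with the orientation of the flanking genes. Convergent members had a median of -0.0224 (-0.0679 to 0.0348), divergent members -0.0336 (-0.0886 to 0.0402) and same-strand members -0.0295 (-0.0524 to -0.00325), with intervals that overlap widely. In gaps under 5 kb the 18 divergent members had the lowest of the 3 medians, at -0.126 (-0.158 to -0.0497), and the 32 convergent and 62 same-strand members had -0.0400 and -0.0172.

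Score varied more with the length of the gap, though not in 1 direction. The median was -0.0452 for 112 members in gaps under 5 kb, -0.0285 for 128 in gaps of 5 to 20 kb, 0.0324 (-0.0280 to 0.0880) for 95 in gaps of 20 to 50 kb, and -0.0913 (-0.170 to -0.0137) for 46 in gaps of 50 kb or longer. Gaps of 20 to 50 kb held 26 members in the highest 10% of scores, 27.4% of the members in such gaps. Gaps of 50 kb or longer held both ends of the range, with 12 of 46 (26.1%) in the lowest 10% and 8 (17.4%) in the highest. Without the members near joints between scaffold pieces of the assembly, 5 of 38 (13.2%) in the longest gaps were in the lowest 10% and the median was -0.0564. Near-start intergenic boundaries showed a median of -0.0806 in gaps under 5 kb and -0.1000 in gaps of 20 to 50 kb (30 boundaries). By distance to a start, the members at 1 to 2 kb had a median of -0.0667, those at 2 to 5 kb -0.0167, those at 5 to 20 kb 0.00542 and the 33 beyond 20 kb -0.0679.

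**Figure D2:**
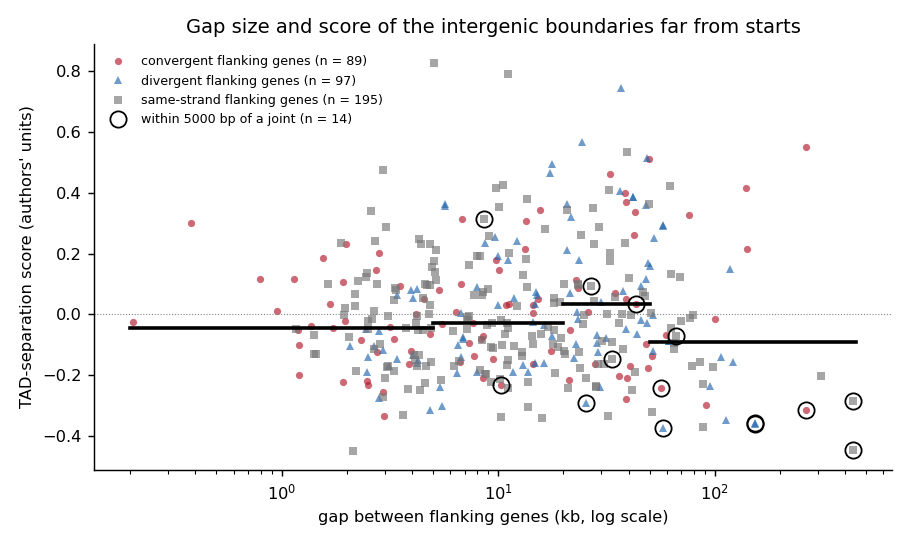
Score (y axis, authors' units) against the gap between flanking genes (x axis, kb, log scale) for the 381 intergenic boundaries far from starts, coloured by gene orientation. Circles mark the 14 within 5000 bp of a scaffold joint, and thick lines are the medians of the 4 gap classes, from -0.0452 under 5 kb to -0.0913 at 50 kb or longer.

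Eligible sequence amounted to 52.2 Mb, 33.9% of the 154 Mb between the outermost boundaries of the arms, and held 7.30 members per Mb. The density was 75.0 per Mb for intergenic boundaries within 1000 bp of a start, 52.8 per Mb for all boundaries within that distance, 4.66 per Mb for boundaries inside genes far from starts and 13.8 per Mb for all boundaries. Members were denser in short gaps. Per Mb of eligible sequence there were 25.2 in gaps under 5 kb, 9.05 in gaps of 5 to 20 kb, 5.61 in gaps of 20 to 50 kb and 2.76 in gaps of 50 kb or longer. In gaps under 5 kb the density was 42.2 per Mb between divergent genes, 32.3 per Mb between same-strand genes and 15.2 per Mb between convergent genes. Counted per gap the order was the reverse, because a longer gap offers more sequence: 2.90% of eligible gaps under 5 kb held a member, against 20.7% of those of 50 kb or longer.

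**Figure D3:**
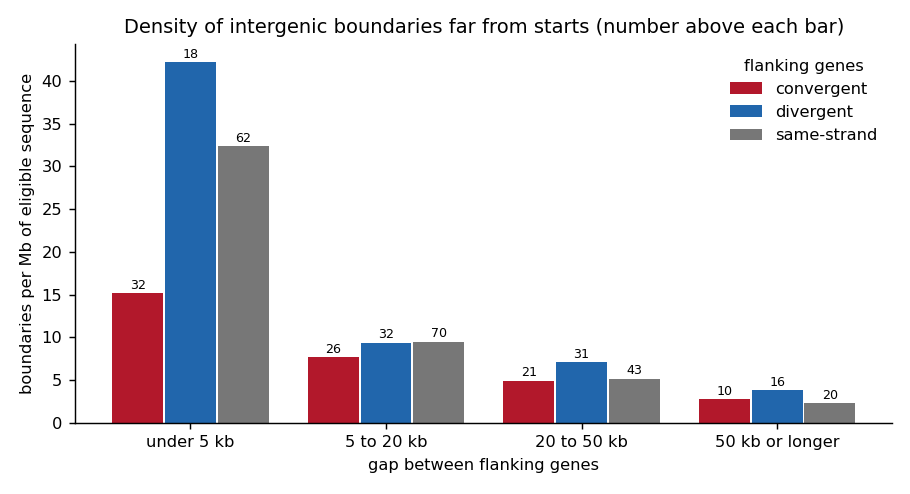
Intergenic boundaries far from starts per Mb of eligible sequence (y axis) by gap length (x axis) and orientation of the flanking genes (colours), with the number of boundaries above each bar. The highest bar is 42.2 per Mb (18 divergent boundaries in gaps under 5 kb), and every class of gaps of 50 kb or longer is below 4 per Mb.

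Within gaps of 5 kb or longer, members were densest in the eligible sequence within 1000 bp of a gene edge, which the rule limits to 3′ ends. Closeness to an edge and the kind of end therefore cannot be told apart. Eligible sequence within 1000 bp of a flanking 3′ end held 36 members at 17.9 per Mb, while sequence farther from a 3′ end held 104 at 4.73 per Mb and sequence whose nearest edge was a 5′ end held 129 at 5.43 per Mb. In gaps under 5 kb the order differed, with 17.6 per Mb within 1000 bp of a 3′ end, 38.1 per Mb farther from one and 35.1 per Mb beside 5′ ends. The 83 members within 1000 bp of a 3′ end had a median score of -0.0138, the 138 farther from one -0.0246 and the 160 whose nearest edge was a 5′ end -0.0487. Same-strand gaps offer an end of each kind, and 132 of their 195 members had the 3′ end as the nearer edge. The rule keeps members 1000 bp from 5′ ends and sets no such limit at 3′ ends, so this count is not a preference.

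Convergent gaps, whose edges are both 3′ ends, held members over a wide range of distances from the nearer gene. Of the 89 convergent members, 40 lay within 1000 bp of a 3′ end and 20 within 500 bp, while 16 sat in gaps under 2 kb and 4 in gaps under 1 kb. The shortest gap, of 0.206 kb between GJ20042 and GJ22324 on 2R, held the boundary from 7833097 to 7833428 in the Hi-C assembly with a score of -0.0239. The next was the 0.381 kb gap between GJ20448 and GJ21888 on 2R (13918202 to 13918548), with a score of 0.300. Then came the 0.796 kb gap between GJ12529 and GJ12872 on 3L, at 0.118. The remaining 2 of the 5 shortest were on X, the 0.949 kb gap between GJ14883 and GJ14705 at 0.0104 and the 1.14 kb gap between the non-coding gene GJ26094 and GJ19291 at 0.117. None of these 5 scored in the lowest 25%. Genes with GJ names carry no assigned function in the files.

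The lowest score among the members, -0.449, was the third lowest of the whole list and belonged to the boundary on 3R from 4204676 to 4205624. It lay in a 2.14 kb gap between the same-strand genes GJ24692 and GJ24691, 0.428 kb from a 3′ end and 1.71 kb from a start. The second lowest, -0.446, lay on 2R from 26588538 to 26591706 in the longest gap with a member, 434 kb between the pseudogenes GJ25687 and GJ26309. Of the 10 lowest-scoring members, 6 were in gaps of 50 kb or longer, against 12.1% of all members. Within 5000 bp of a joint between scaffold pieces lay 4 of the 10, all 4 in such gaps, including this 2R boundary. The ninth, at -0.339, lay 1.28 kb beyond the 3′ end of GJ10734 in the 10.3 kb gap before the microRNA gene mir-252.

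The highest-scoring members lay in gaps of very different length. The boundary on 2R from 21198223 to 21199358 scored 0.826 in a 5.04 kb gap between GJ20886 and GJ20887, and that on 2R from 16790 to 17828, the first boundary of the arm, scored 0.790 between GJ18154 and GJ18164. On 3R a member 1.14 kb from the start of GJ11051 scored 0.746 in a gap of 37.0 kb. The fifth highest, at 0.549, lay on X in a 265 kb convergent gap between GJ26127 and the non-coding gene GJ25677. That gap also held a member at -0.314, 22.1 kb away and over a scaffold joint, so 1 gap contained scores from both ends of the list.

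Such shared gaps were few. The 381 members occupied 369 gaps of the 6168 with eligible sequence, and 12 gaps held 2 members each. In 5 of these pairs the centres were under 5 kb apart, and in all 5 the scores differed by less than 0.01. Scores are computed over windows longer than these separations, per the study's methods, so such neighbours share contacts. The closest pair, 1.49 kb apart, scored 0.292 and 0.295 and lay 25.7 kb and 27.2 kb from the start of Kr, a gap gene that in D. melanogaster encodes a zinc finger repressor. The next pair, 1.63 kb apart in a 42.0 kb divergent gap on 2L, scored 0.386 and 0.387.

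Developmental genes were sought among the flanks through lists of symbols. Most genes of this annotation carry only a GJ name, so few listed genes could be found. Of the Hox list the annotation held lab, Antp, Ubx and abd-A, which specify segment identity, and also zen and bcd. All 6 border a gap, and 2 flanked a member (Ubx and abd-A). Of the segmentation and patterning genes 5 of 15 did (h, Kr, wg, twi and salm), and of the signalling genes 1 of 2 did (fz). None of 3 architectural protein genes (su(Hw), mod(mdg4) and Trl) and none of 3 dosage compensation genes (msl-1, msl-2 and msl-3) did so. Over all coding genes that border a gap, 659 of 11642 (5.66%) flanked a member, and over those with a symbol other than GJ and a number 21 of 255 (8.24%) did. These counts are not matched for gap length. Of gaps with eligible sequence, 2.90% of those under 5 kb and 15.4% of those of 20 to 50 kb held a member. Whether listed genes differ from others beside gaps of like length was not tested.

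The 10 members beside listed genes had a median score of 0.0892 (range -0.135 to 0.295) and a median gap of 30.3 kb. Of these 10, 8 scored above 0, against 43.8% of all members and 36.0% of all boundaries, and none scored in the lowest 25%. The comparison is not matched for gap length. All members had a median gap of 11.1 kb, and those in gaps of 20 to 50 kb had a median score of 0.0324. The 10 are not independent, since they include the Kr pair, which shares contacts. Another pair lay upstream of h, a pair-rule repressor gene of D. melanogaster. The h pair scored 0.232 at 3.34 kb from its start and 0.0451 at the far side of the 27.7 kb gap, 0.981 kb from the 3′ end of GJ13063. A member between fz, which encodes a Wnt and planar polarity receptor, and GJ11375 scored 0.200, and one 26.8 kb from wg, which encodes a Wnt ligand, scored 0.0773. The member upstream of salm, a zinc finger gene annotated here as a pseudogene, scored 0.0611 at 8.32 kb from its start. The member upstream of twi, the mesoderm determinant, was the lowest of the 10, at -0.135, in a short gap of 4.05 kb.

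The Hox genes are split in D. virilis between stretches of 3R that lie far apart in these coordinates. Beside Ubx the member from 17587231 to 17588265 scored 0.101 beyond the 3′ end of that gene, in a gap of 2.75 kb bordered on the other side by GJ23926. Beside abd-A the member from 23874472 to 23875740 scored -0.0991, beyond the 3′ end of that gene and 2.52 kb from the start of GJ10600. A further member on 3R from 23810021 to 23812188 scored 0.351 between mir-iab-8, a microRNA gene of the D. melanogaster bithorax complex, and the non-coding gene GJ26275. This last flank was chosen after its values were seen.

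Other symbols among the flanks, also chosen after their values were seen, brought the number of members beside a gene with a symbol to 31. These 31 had a median score of 0.0451 (range -0.339 to 0.568) and a median gap of 18.2 kb. The gene of the microRNA bantam, which promotes tissue growth in D. melanogaster, had a member on each side: that from 19872185 to 19876710 on 3L scored -0.132, and that from 19898548 to 19900022 scored 0.568, the fourth highest of all members. The member between slbo, a C/EBP transcription factor gene, and the upstream gene GJ21595 scored -0.191, and that beyond the 3′ end of slbo scored 0.00915. The members beside sog, a BMP antagonist gene, and para, a sodium channel gene, scored -0.0273 and -0.109. Beside fkh, a forkhead transcription factor gene, the value was 0.0552, and beside Amy, an amylase gene, 0.364. Low values stood beside Obp99b, an odorant-binding protein gene (-0.276), and ewg, a transcription factor gene (-0.241).

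Boundary intervals were wider than near starts, a trait partly shared by boundaries inside genes far from starts. The members had a median width of 1138 bp (1045 to 1279), against 902.5 bp for near-start intergenic boundaries and 967 bp for all. Inside genes far from starts the median was 1013 bp (903 to 1126), and 13.9% exceeded 2000 bp. Intervals over 2000 bp belonged to 84 members (22.0%), against 9.21% of all boundaries and 3.45% of near-start intergenic ones. These 84 had a median score of -0.0866 (-0.146 to -0.00344), and the 297 narrower members -0.0196 (-0.0436 to 0.00233). The whole interval of 275 members was intergenic and over 1000 bp from a start, and 52 intervals reached into a gene.

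Joints between scaffold pieces of the Hi-C assembly moved with the strongest scores. Of the 15 boundaries in the list within 5000 bp of 1 of the 104 joints, 14 were members, which is 3.67% of the members against 0.705% of all boundaries. Centres of 10 of them lay inside the 5000 bp gap that the chain file leaves between pieces. The annotation was moved over from the pieces, so membership of a boundary in such a gap is in part built into the rule. The 14 had a median score of -0.265 (range -0.446 to 0.314), a median width of 3122 bp and a median gap of 57.1 kb, and 9 of 14 scored in the lowest 10%. They made up 4 of the 10 lowest-scoring members, including the 2R boundary in the 434 kb gap and the X pair at -0.362 and -0.357 beside GJ19796. Without them the median score of the members was -0.0239, the share in the lowest 10% was 7.63% (28 of 367) and that in the highest 10% 18.0%. The median gap was then 10.999 kb, and the members made up 17.4% of the boundaries, with 25.3% divergent, 51.5% same-strand and 23.2% convergent.

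The share of members differed between the arms, which are named after the corresponding arms of D. melanogaster. They made up 23.8% of the boundaries on X (88 of 369), 21.9% on chromosome 4 (7 of 32), 17.6% on 2R, 16.8% on 2L, 16.6% on 3R and 15.3% on 3L. Eligible sequence was also a larger share of X, at 40.2% of its span, against 29.6% to 34.0% on the other long arms and 19.3% on chromosome 4. Per Mb of eligible sequence X had 6.69 members, 3R 6.76, 2L 6.81, 3L 7.27, 2R 9.13 and chromosome 4 31.2, the last over 0.224 Mb. Of the 14 members at joints 8 lay on X. The X members had a median score of -0.0511 (-0.0477 without joints) and 9.09% of them were in the highest 10%, against 5.96% of all X boundaries, whose median was -0.0762. The share in the highest 10% was 23.6% of members and 10.5% of all boundaries on 2R, 21.3% and 8.79% on 3L, 19.8% and 12.9% on 3R, and 16.4% and 10.5% on 2L.

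On the small chromosome 4 the 7 members scored from -0.245 to 0.516. The last boundary of that chromosome, at 1662001 to 1662902 in a 48.5 kb gap between GJ18239 and the non-coding gene GJ26543, had the highest of these scores. The lowest lay in a 3.83 kb gap between GJ15974 and GJ16077. The convergent member between GJ15760 and GJ18459 scored -0.123 with its centre 0.0065 kb from a 3′ end, the shortest such distance of any member.

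A larger share of the members than of all boundaries lay towards the ends of the arms. Of the members 96 (25.2%) lay in the outer 10% of an arm span at either end, against 17.3% of all boundaries. Their gaps had a median of 28.1 kb, while those of the 285 inner members had a median of 8.97 kb. Median scores were -0.0454 in the outer and -0.0258 in the inner members, with 15.6% and 7.72% in the lowest 10%, against 11.7% of all outer and 9.66% of all inner boundaries. Without the members near joints, a setting chosen after seeing the data, the median of the 87 outer members was -0.0142 with 9.20% in the lowest 10%, and that of the 280 inner members was -0.0249 with 7.14%.

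The TADs beside these boundaries were longer and poorer in genes. The 103 TADs bounded at both ends by intergenic boundaries far from starts had a median length of 60.0 kb and 34.1 coding genes per Mb, the 547 with 1 such end had 46.5 kb and 73.8 per Mb, and the 1471 with none had 36.3 kb and 133 per Mb. Since the members lie in long gaps, low gene density around them is in part built into the rule. Of the TADs on the 2 sides of a member the gene-poorer had a median of 34.9 coding genes per Mb and the richer 96.5. These medians were 70.9 and 230 for near-start intergenic boundaries and 48.0 and 144 for boundaries inside genes far from starts. Over all boundaries they were 63.6 and 196. Because the sides were sorted by density, the 2 medians differ in any class of boundaries. Of 82 TADs without a coding gene, 45 had at least 1 member end and 14 had 2. A further count, of TADs that touch no gene feature and therefore lie within 1 gap, was 20, with lengths of 1.49 to 40.7 kb (median 21.5 kb). They include the stretches between the 5 pairs of members under 5 kb apart, whose scores share contacts. The longest had both ends within 5000 bp of a scaffold joint, and some others had at least 1 such end. Members followed each other along the arms in 72 runs of 2 or more, which held 175 members, and the longest run had 7. Runs also arise when members are placed at random, and the number so expected was not computed. These counts are therefore not a measure of clustering.

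**Figure D4:**
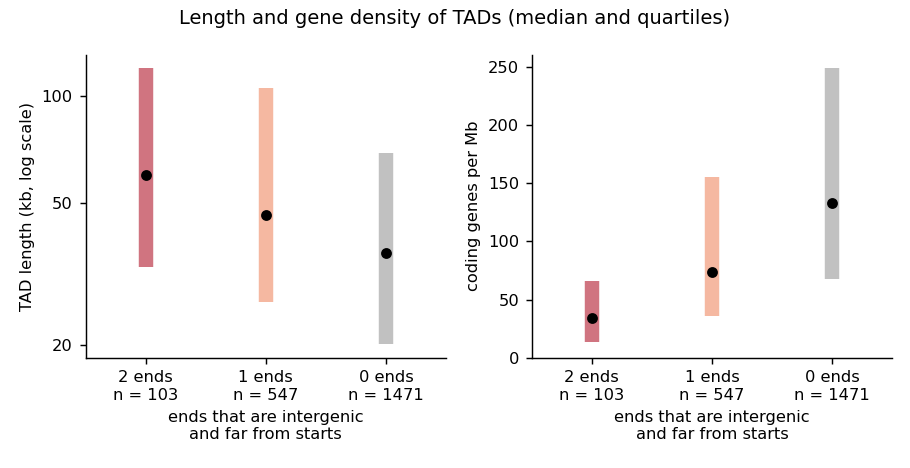
Length (left, kb, log scale) and coding genes per Mb (right) of D. virilis TADs with 2, 1 or 0 ends at intergenic boundaries far from starts. Dots are medians and bars span the quartiles, with medians of 60.0, 46.5 and 36.3 kb on the left and 34.1, 73.8 and 133 genes per Mb on the right.

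The D. virilis sequence was not used here, and the same rule in D. melanogaster gives a set whose sequence can be read. It yielded 185 of 2209 boundaries (8.37%), with a median gap of 10.5 kb, 36 divergent, 88 same-strand, 60 convergent and 1 with a gene on 1 side only. Annotations differ between the species, so these shares are set side by side only. The median score of the 185 was -0.00318, against -0.105 for intergenic boundaries near a start and -0.0787 for all boundaries of that list. Motif 1, the M1BP word GGTCACACT, occurred on either strand within 500 bp of the centre of 1 of the 185 (0.541%), against 10.5% of all 2209 boundaries, and the DRE word TATCGATA in 8 (4.32%, against 14.1%). Boundaries inside genes far from starts had these words in 0 and 4 of 335 (1.19%), so both were scarce in that class too. Intergenic boundaries near a start had them in 16.1% and 22.5%. The rule keeps starts over 1000 bp from a centre, so the searched 500 bp on either side held no annotated start. Low shares of words found near starts are thus in part built into the rule. The CTCF words AGATGGCGC, AGGTGGCGC, AGAGGGCGC and AGGGGGCGC occurred in 15 (8.11%, against 5.66%), the Su(Hw) core words GCATACTTT and GCATATTTT in 16 (8.65%, against 5.89%) and the GAGA word GAGAGAG in 17 (9.19%, against 14.8%). Intergenic boundaries near a start had the CTCF words in 6.24%, the Su(Hw) words in 6.07% and the GAGA word in 12.7%. Boundaries inside genes far from starts had them in 5.67%, 6.87% and 12.8%. The shares were not adjusted for base composition. No word of 1 factor contains a word of another. A match is a description of letters and not of a bound site. To show what such a match looks like, 3 low-scoring boundaries of this set with a CTCF word are given with the word in capitals, on the plus strand of BDGP6 (RefSeq). They scored -0.230 between Men and lncRNA:CR44231, -0.155 between CHES-1-like and CG15478, and -0.153 between Jhbp1 and CG14662.
chr3R:12723918-12723946, Men: aaaatataatAGATGGCGCtatcgttaag
chrX:7710956-7710984, CHES-1-like: cttaagtcatAGATGGCGCtcgctgtaac
chr3R:4970776-4970804, Jhbp1: tatagtatatAGATGGCGCaaaatagatt
The words lay 15, 54.5 and 146 bp from the boundary centres.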

How the data were processed

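Hi-C of stage 15 to 16 embryos was processed by the authors, who mapped reads with BWA, built DpnII-resolution matrices with HiCExplorer, summed 2 replicates per species and ran hicFindTADs on the sums. The deposited lists hold an interval and a score, which is the authors' TAD-separation score and was ranked within a list only, since its scale between maps is not stated. The contacts behind a boundary are unknown. Genes came from the deposited FlyBase annotation that the authors moved with CrossMap to their Hi-C assembly, with 14493 genes and 18694 transcript starts on the arms. Joints were the middles of gaps between pieces of the deposited chain file; these gaps of 5000 bp exceed the spacer described in the methods, a difference not resolved.

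Flanks were the nearest genes on either side of a centre, and TADs ran between consecutive centres. Medians carry 95% binomial order-statistic intervals. No test was made. Outer parts were 10% of each arm span. Genes were named at the 10 lowest and 5 highest scores, the 5 longest gaps, the 5 shortest convergent and 5 longest divergent gaps, the 3 members just over and 3 boundaries just under 1000 bp, listed genes, joints and chromosome 4. The rule for members reads the annotation alone, but this set of boundaries and the gene lists were chosen for description with earlier results of these data known. The classification was tested on simulated data. For D. melanogaster, Ensembl genes on BDGP6 were used. Of 4418 boundary edges of that list, 82.3% lay within 3 bp of a bin centre computed from DpnII sites in that sequence, against 1.29% after a shift. The Su(Hw) words were shortened after longer ones had been counted. The D. busckii list (2134 boundaries) was not used. Alternatives changed the start distance, position, genes, boundaries, arm ends, joints, statistic and arms. Python 3.11.15, NumPy 2.4.6, pandas 2.3.3, SciPy 1.17.1 and matplotlib 3.10.9 were used.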

Additional observations from a re-analysis of the deposited data

How the results depend on the processing

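No paired analysis was possible because each species has 1 boundary list from a map summed over its replicates. Members made up 23.4% of boundaries with a start distance of 500 bp and 12.8% with 2000 bp, 12.9% when the whole interval had to meet the rule, 15.5% (165 members) among the 50% of boundaries with lower scores and 16.2% without the outer 10% of the arms. The median gap was 8.69 kb at 500 bp, 16.4 kb at 2000 bp, 16.9 kb with the whole interval and 8.97 kb without the arm ends, and convergent genes flanked 18.9% at 500 bp and 28.2% at 2000 bp. The mean score was 0.00489 in place of the median of -0.0283, a change of sign. Under the other alternatives, including each arm left out in turn, the median score of the members lay between -0.0450 (500 bp) and -0.00344 (whole interval), and the difference of members minus other boundaries, 0.0312 as reported, ranged from 0.0132 to 0.0561. Boundaries in sequence with few reads can be missed, and the depth behind each boundary is not given.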
